A study of Mus musculus with 14 samples.

Results

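Chst4, Hp and 8 further named genes that lie close to Atxn1l on mouse chromosome 8 were followed in whole lungs of mice at postnatal day 6. The genes were Zfhx3, Pmfbp1, Dhx38, Txnl4b, Hp, Pkd1l3, Ist1, Zfp821, Ap1g1 and Chst4, 10 of the 18786 probe sets with 1 gene symbol in a table of 21212 probe sets. They were chosen by place, on both sides of Atxn1l, and with the values of the Atxn1l knockout already known, so their values in that knockout are given as a description and no test of a member is read from them. All 10 had a probe set of their own, matched by Entrez gene number.

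The 14 arrays held 4 groups, all of lung tissue on the C57BL/6J strain, from intercrosses of heterozygous mice. In the first set, 4 lungs of the genotype Atxn1L -/- (Atxn1l is the current symbol of that gene) stood against 4 wild types. In the second, 3 lungs of the genotype Atxn1 -/- stood against 3 wild types. These genotypes are those of the sample labels, while the design text of the series writes Atxn1-/- for the pairs of both sets. Affymetrix mouse Gene ST arrays were used with 100 ng of total RNA each, and values are log2 levels made by the authors with the RMA method, separately in each set. A log2 difference of 1 is a doubling of the signal. Levels in different sets, or of different probe sets, are therefore not compared.

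Ataxin-1-like and its relative ataxin-1 are nuclear proteins that bind the transcriptional repressor Capicua, which sits on octamers of the kind TGAATGAA in its target genes. A mouse that inherits a deleted gene from both parents also inherits the DNA beside that gene in both copies, so that genes near a deleted gene travel with it. The arrays did not read that DNA, the labels do not state the origin of the targeted lines, and the part of linked DNA in the values below was not tested. In whole lungs, fewer cells of a type and less RNA per cell cannot be told apart.

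Chst4 and Hp each lay 5 measured named genes from Atxn1l, on opposite sides, in the gene order of the mouse assembly GRCm38.p6. In that order Zfhx3 was the tenth gene before Atxn1l, followed by Pmfbp1, Dhx38, Txnl4b, Hp, Pkd1l3, Ist1 and Zfp821. Ap1g1 was the first gene after it and Chst4 the fifth. RefSeq promoter windows of GRCm38.p6, from 250 bases before to 50 after an annotated start, were matched for 7 of the 10 members and for Atxn1l. Txnl4b, Pkd1l3, Zfp821, Zfhx3 and Ap1g1 were on the plus strand, and Ist1, Chst4 and Atxn1l on the minus strand. The windows of the deleted gene (chr8:109737731-109738030, minus strand), of the member with the most negative difference (Chst4, chr8:110039285-110039584, minus strand) and of a member that was higher (Pkd1l3, chr8:109613984-109614283, plus strand) are given here on the strand of the gene, 5′ to 3′, with the annotated first base of the transcript in capitals.
Atxn1l: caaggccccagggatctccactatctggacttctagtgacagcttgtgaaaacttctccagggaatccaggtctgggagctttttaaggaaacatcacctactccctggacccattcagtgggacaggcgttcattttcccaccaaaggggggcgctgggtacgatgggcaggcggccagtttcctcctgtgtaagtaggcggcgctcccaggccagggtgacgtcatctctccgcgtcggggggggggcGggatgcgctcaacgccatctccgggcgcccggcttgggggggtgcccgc
Chst4: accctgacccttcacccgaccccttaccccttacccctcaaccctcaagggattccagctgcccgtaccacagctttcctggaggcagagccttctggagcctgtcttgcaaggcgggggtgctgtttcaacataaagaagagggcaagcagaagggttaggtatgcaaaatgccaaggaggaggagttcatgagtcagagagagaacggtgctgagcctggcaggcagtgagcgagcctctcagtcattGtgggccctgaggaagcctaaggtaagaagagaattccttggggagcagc
Pkd1l3: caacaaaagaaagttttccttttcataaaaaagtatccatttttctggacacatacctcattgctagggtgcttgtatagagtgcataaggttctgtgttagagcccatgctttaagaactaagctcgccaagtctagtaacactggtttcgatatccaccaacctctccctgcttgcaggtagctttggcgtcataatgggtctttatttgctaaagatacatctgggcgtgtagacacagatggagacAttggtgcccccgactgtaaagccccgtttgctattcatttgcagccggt
The Capicua octamers TGAATGAA and TGAATGGA, searched on both strands, were found in none of the 10 windows of these 8 genes (Zfp821 had 3 windows). They were found in 811 of all 32851 windows of the same length, which is 2.47%. The absence says only that these letters are not in these windows.

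The targeted gene was low on every Atxn1l knockout array. Atxn1l had log2 levels of 6.68, 6.93, 7.05 and 6.79 in Atxn1l knockouts, against 9.59, 9.43, 9.29 and 9.47 in their wild types, a difference of -2.58 (SE 0.09). In the Atxn1 set it averaged 10.39 ± 0.05 in knockouts and 10.37 ± 0.04 in wild types (SD, n = 3 each). Atxn1 itself averaged 11.02 ± 0.02 in Atxn1 knockouts and 11.01 ± 0.11 in their wild types (SD, n = 3 each), and a probe set outside the deleted part would not check that genotype. The 11 lung genes listed had group means between 8.65 (Foxj1, of ciliated cells) and 13.95 (Sftpc, a surfactant protein) in the Atxn1l set. In the Atxn1 set the same 2 genes bounded the range, at 9.38 and 14.33.

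On the first principal component 1 array of each set stood apart. Atxn1l knockout replicate 1 did so in a component with 31.3% of the variance, and Atxn1 wild type replicate 1 in a component with 46.7%. Results without these arrays are therefore given too for Chst4, Hp and Pkd1l3, and without the first of them for some further genes. Xist, which marks female lungs, was low on 1 of 4 Atxn1l knockouts and 2 of 4 of their wild types, and on 1 of 3 Atxn1 knockouts and 2 of 3 of their wild types.

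Chst4 encodes a sulfotransferase of the Golgi that adds sulfate to the sugars of L-selectin ligands, by which lymphocytes attach to high endothelial venules. It was lower on every Atxn1l knockout array than on any wild type. Its log2 levels were 6.88, 6.98, 6.88 and 6.79 in Atxn1l knockouts, against 7.46, 7.43, 7.56 and 7.46 in wild types. The highest knockout and the lowest wild type were 0.44 apart, which is more than the whole range within either group. The mean difference was -0.59 (SE 0.05, 95% interval -0.71 to -0.47, n = 4 each), a level 1.51-fold lower in knockouts. As a count only, 1 of the 10 members, Chst4, was among the 0.0424% of probe sets called in limma's fit over the whole table (0.0236% higher, 0.0189% lower), and 0 were with the replicate number as a block. Nothing is read from this count, since the comparison had chosen the members. The difference lay between -0.62 and -0.56 in the 8 fits that each left out 1 array, and was -0.59 without knockout replicate 1 and -0.60 with the Xist level as a covariate.

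Hp encodes haptoglobin, an acute phase protein of plasma that captures free haemoglobin and is also stored in the granules of neutrophils. It was higher on every Atxn1l knockout array than on any wild type. Log2 levels of Hp were 10.91, 10.67, 10.61 and 10.44 in Atxn1l knockouts, against 10.15, 10.18, 10.17 and 9.95 in wild types. The groups were 0.26 apart at their nearest values, and the knockouts were spread more widely (SD 0.20) than the wild types (SD 0.11). The mean difference was 0.54 (SE 0.10, 95% interval 0.33 to 0.76, n = 4 each), a level 1.46-fold higher in knockouts. Knockout replicate 1 was the highest array, and without it the difference was 0.46 (SE 0.08). It was 0.60 (SE 0.08) with the Xist level as a covariate.

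Pkd1l3 encodes a member of the polycystin family, known in the mouse from sour taste cells, where it pairs with the channel Pkd2l1. Pkd1l3 had log2 levels of 7.41, 7.64, 7.52 and 7.31 in Atxn1l knockouts, against 7.14, 7.29, 7.20 and 7.22 in wild types. The groups did not overlap, but the lowest knockout and the highest wild type were only 0.03 apart. Its difference was 0.26 (SE 0.07, 95% interval 0.10 to 0.42, n = 4 each), a level 1.20-fold higher in knockouts. Without knockout replicate 1 it was 0.28, and without knockout replicate 2, the highest array, it was 0.20.

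**Figure D1:**
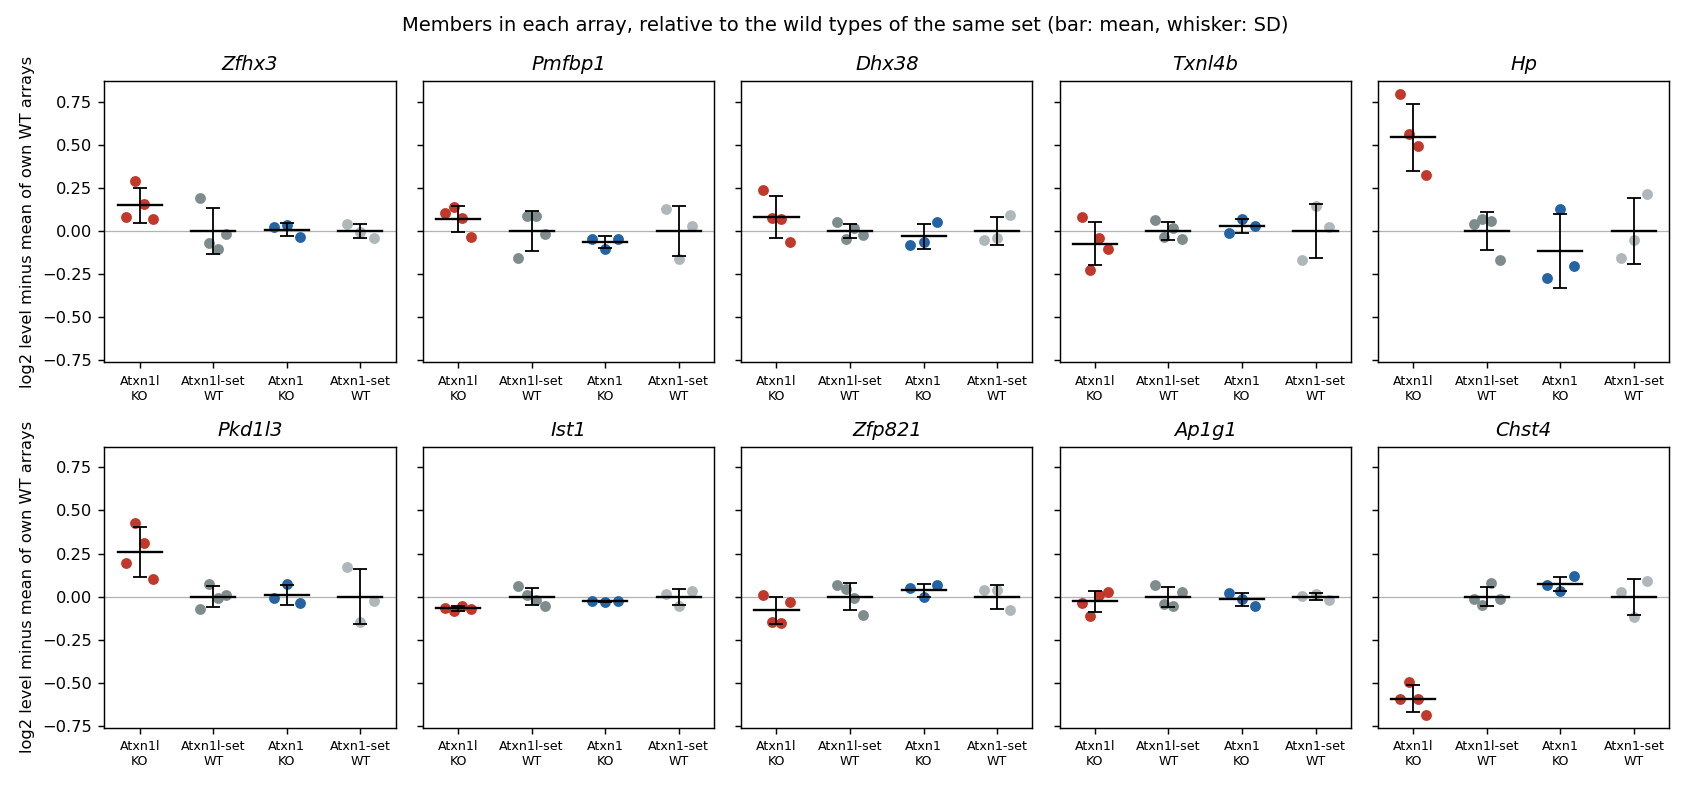
Log2 level of each of the 10 members on each of the 14 arrays, minus the mean of the wild types of the same set (vertical axis), for Atxn1l knockouts, their wild types, Atxn1 knockouts and their wild types (horizontal axis). Points are arrays, the horizontal bar is the group mean and whiskers are SD. In the Atxn1l set Hp and Pkd1l3 of the knockouts lie above all wild types and Chst4 lies below them, while in the Atxn1 set the groups of every member overlap.

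Ap1g1 and Ist1 serve membrane traffic: Ap1g1 is the large gamma subunit of the clathrin adaptor AP-1 at the trans-Golgi network and endosomes, and Ist1 belongs to the ESCRT-III family, which cuts membrane necks when cells divide. Ap1g1, the nearest measured gene after Atxn1l, averaged 11.03 ± 0.06 in Atxn1l knockouts and 11.05 ± 0.06 in wild types (SD, n = 4 each), a difference of -0.03 (SE 0.05). Ist1 had log2 levels of 11.49, 11.47, 11.50 and 11.48 in Atxn1l knockouts, against 11.61, 11.56, 11.53 and 11.50 in wild types. No knockout reached a wild type, yet the nearest values differed by only 0.000593, and the mean difference was -0.07 (SE 0.04, 95% interval -0.17 to 0.03). The gene models of Ist1 and Pkd1l3 lie on opposite strands and overlap by 1353 bases in GRCm38.p6.

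Dhx38 and Txnl4b serve splicing: Dhx38 is a helicase that remodels the spliceosome before the second step of splicing, and Txnl4b is a thioredoxin-like protein related to a subunit of the spliceosome's U5 particle. Dhx38 averaged 9.06 ± 0.12 in Atxn1l knockouts and 8.98 ± 0.04 in wild types (SD, n = 4 each), a difference of 0.08 (SE 0.06). Knockout replicate 1 was the highest Dhx38 array at 9.22, and without it the difference was 0.03. Txnl4b averaged 8.47 ± 0.13 in Atxn1l knockouts and 8.54 ± 0.05 in wild types (SD, n = 4 each), a difference of -0.07 (SE 0.07) that was -0.12 without knockout replicate 1. In both genes the values of the groups overlapped.

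Zfhx3 and Zfp821 encode zinc finger proteins, and Zfhx3, a large homeobox factor, is known in the mouse for its part in circadian rhythm. Zfhx3 had log2 levels of 10.10, 10.31, 10.17 and 10.09 in Atxn1l knockouts, against 10.21, 9.95, 9.91 and 9.999 in wild types. A single wild type, replicate 1, lay among the knockouts. The difference of Zfhx3 was 0.15 (SE 0.08, 95% interval -0.02 to 0.32), and it was 0.21 without that wild type and 0.10 without knockout replicate 2. Zfp821, the nearest measured gene before Atxn1l, averaged 8.89 ± 0.08 in Atxn1l knockouts and 8.97 ± 0.08 in wild types (SD, n = 4 each), a difference of -0.08 (SE 0.06). Pmfbp1, which in the mouse joins the head and tail of sperm, averaged 5.81 ± 0.07 in Atxn1l knockouts and 5.74 ± 0.11 in wild types (SD, n = 4 each), with overlapping groups. Its mean level was below the 25th percentile of all probe sets in both sets.

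Among the 10 members, then, the groups of the Atxn1l set did not overlap in 4 (Hp and Pkd1l3 higher in knockouts, Chst4 and Ist1 lower), where 5.32% of all 21212 probe sets did not overlap (2.76% higher in knockouts, 2.56% lower). Because place alone did not choose the members, the genes around Atxn1l were also counted without choice, as the 25 measured named genes on each side. Of these 50 genes the same 4 did not overlap, which is 8%, beside the 5.32% of all probe sets. With 10 genes on each side, a window that holds all 10 members, the same 4 of 20 genes did not overlap, which is 20%. The share in that window includes the choice of the members. The groups of each of the 40 genes that were not members overlapped. The median log2 change of the 40 was 0.01, with a range of -0.15 to 0.26, against a median of 0.00263 over all probe sets. The highest of the 40, at 0.262, was as large as Pkd1l3 at 0.259. The median size of the change, without its sign, was 0.04 in the 40 genes, 0.08 in the 10 members and 0.05 over all probe sets. Nothing is read from the contrast of members with the other 40, since the members were chosen with these values known. Among 50 genes on each side, Adat1 was the 1 further gene whose groups did not overlap, 37 genes after Atxn1l, at -0.20 (SE 0.06). In that wider window 5% of the 100 genes did not overlap.

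Measured genes that lie between the members showed no such separation. Dhodh, an enzyme of pyrimidine synthesis, lies between Hp and Pkd1l3, and had log2 levels of 8.23, 8.23, 8.31 and 8.12 in Atxn1l knockouts, against 8.16, 8.33, 8.35 and 8.12 in wild types. Both groups covered the same range, and the difference was -0.02 (SE 0.07). Phlpp2, a phosphatase of Akt kinases, Marveld3, a tight junction protein, and Tat, which breaks down tyrosine, lie in this order between Ap1g1 and Chst4. Phlpp2 differed by -0.02 (SE 0.05), Marveld3 by -0.01 (SE 0.06) and Tat by -0.10 (SE 0.08), each with overlapping groups. Hp and Chst4 differed in opposite directions, and Pkd1l3, at 0.26, also lies between Hp and Atxn1l. Nothing is read from the smaller differences of the genes between members, since the members were chosen with these values known.

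**Figure D2:**
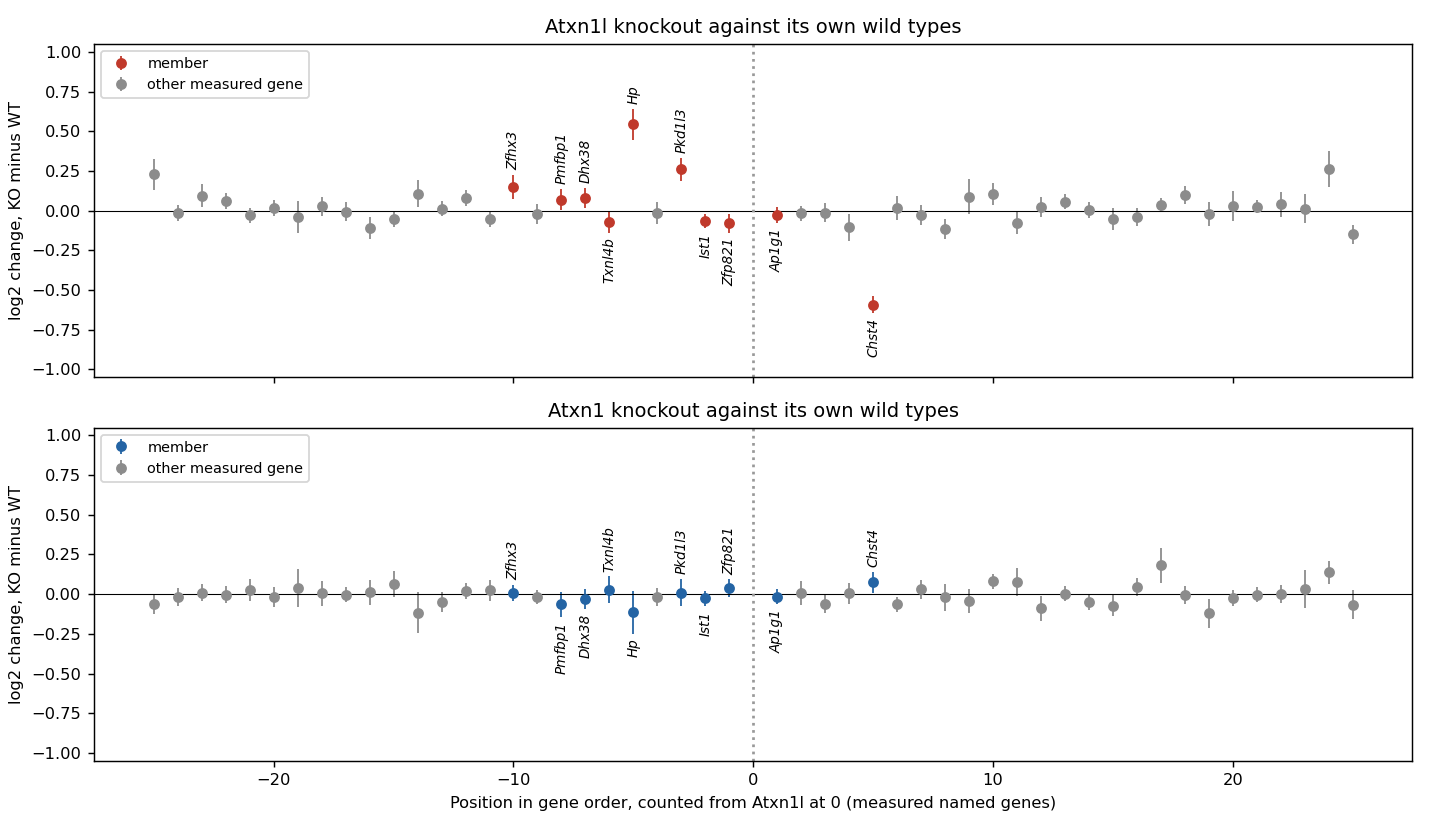
Log2 change, knockout minus wild type (vertical axis), of the 25 measured named genes on each side of Atxn1l by place in the gene order (horizontal axis, Atxn1l at 0), in the Atxn1l knockout (upper panel) and the Atxn1 knockout (lower panel). Points are fitted changes with bars of 1 SE, and members are coloured and named. In the upper panel Chst4 (-0.59) and Hp (0.54) stand away from the other genes, which lie between -0.15 and 0.26. Pkd1l3 (0.26) is at the upper end of that range, where a gene that is not a member also lies.

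The Atxn1 arrays came from mice in which Atxn1l was not targeted and were not the arrays that chose the members, so there the members were tested. None of the 10 passed: limma gave an adjusted p of 0.999886 for each of them, and 0.0% of all probe sets passed in this comparison. Before adjustment, 258 probe sets (1.22%) and 0 members had a p below 0.05. In no member were the groups separate, where 4.75% of all probe sets had separate groups (2.85% with knockouts higher, 1.9% with knockouts lower). Exact two-sided permutation tests gave p of 0.4 to 0.9 over the 10 members (adjusted p 0.833 to 0.9), where 3 arrays against 3 cannot go below 0.1.

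Chst4 had log2 levels of 8.48, 8.45 and 8.53 in Atxn1 knockouts, against 8.44, 8.30 and 8.50 in their wild types. The knockouts lay within or just above the range of the wild types, and the difference was 0.07 (SE 0.07, 95% interval -0.08 to 0.23, exact permutation p = 0.4). The difference between the knockouts was not tested, since the Atxn1l values chose the gene. Leaving out Atxn1 wild type replicate 1, 2 or 3 gave 0.09, 0.02 and 0.12 in turn.

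Hp had log2 levels of 11.23, 11.63 and 11.30 in Atxn1 knockouts, against 11.34, 11.45 and 11.71 in their wild types. Here the groups lay across each other, with a difference of -0.11 (SE 0.13, 95% interval -0.43 to 0.20, exact permutation p = 0.5). A single array moved it widely: leaving out wild type replicate 3, the highest, gave -0.01, and leaving out wild type replicate 1 gave -0.19. Pkd1l3 averaged 8.12 ± 0.06 in Atxn1 knockouts and 8.11 ± 0.16 in wild types (SD, n = 3 each), a difference of 0.01 (SE 0.09, 95% interval -0.19 to 0.21). Without wild type replicate 1 that difference was 0.10. The other 7 members differed by -0.06 to 0.04 in the Atxn1 set. Their 95% intervals all held 0 and reached from -0.25 to 0.23 in all.

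**Figure D3:**
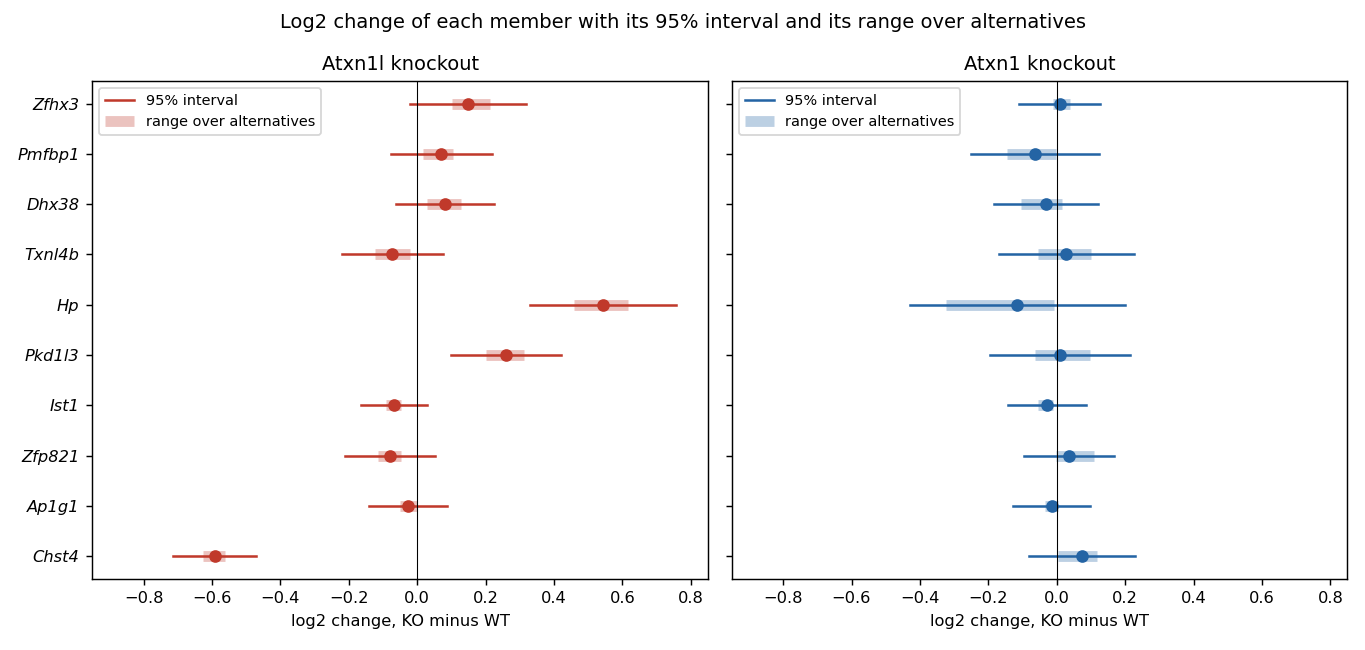
Log2 change, knockout minus wild type (horizontal axis), of each member in gene order (vertical axis) in the Atxn1l knockout (left) and the Atxn1 knockout (right). Points are fitted changes, thin lines are 95% intervals and pale bars span the values under the alternatives. Chst4 (-0.59), Hp (0.54) and Pkd1l3 (0.26) have the changes of largest size among the members in the Atxn1l knockout, where the members were chosen, and all 10 intervals hold 0 in the Atxn1 knockout.

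Hp is made by several cell types, so the marker genes of these cells are set beside it. The mean log2 level of 14 neutrophil genes was 10.25, 8.91, 8.72 and 8.56 in Atxn1l knockouts, against 8.44, 8.71, 8.07 and 8.004 in wild types. The order of the knockouts was the same for Hp, with replicate 1 highest and replicate 4 lowest. Among the wild types replicate 2 was highest and replicate 4 lowest in both, but replicates 1 and 3 changed places. Wild type replicate 2 had a higher neutrophil mean than knockout replicate 4 (8.71 against 8.56) and a lower Hp (10.18 against 10.44). All 14 neutrophil genes had a change above 0 in the Atxn1l set (median 0.86) and none passed, although Ngp, a granule protein, did with the Xist level as a covariate. Without knockout replicate 1 that median was 0.39 with 12 of 14 above 0. The 11 macrophage genes had array means of 9.12 to 9.70 in Atxn1l knockouts and 8.66 to 8.78 in wild types, and 10 of 11 lay above 0. The lists were chosen with earlier results of these data known, so calls of list genes are given as a description. Msr1, a scavenger receptor, rose by 0.69 (SE 0.08, adjusted p = 0.0197), and Chil3, a chitinase-like protein, rose by 1.46 (SE 0.16, adjusted p = 0.0210), both in limma's fit. Neither passed when knockout replicate 4 or wild type replicate 1, 2 or 3 was left out. Chil3 alone passed without knockout replicate 3 and with the replicate block. Msr1 alone passed with dim probe sets removed, a filter that took out Chil3 itself. C1qb and C1qc, subunits of complement C1q, passed too without knockout replicate 1, as did Csf1r, a growth factor receptor, without knockout replicate 2. The part of these cells in the Hp value was not tested.

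In the Atxn1 set the neutrophil mean was 8.999, 9.06 and 9.21 in Atxn1 knockouts, against 8.88, 8.75 and 10.65 in wild types. Wild type replicate 3, with the highest neutrophil mean, also had the highest Hp of that set, but Atxn1 knockout replicate 2 came close to it in Hp (11.63 against 11.71) with a neutrophil mean of 9.06. The 9 liver genes, which include albumin, had array means of 6.55 to 6.72 in Atxn1l knockouts and 6.61 to 7.09 in wild types. The highest liver mean was that of wild type replicate 4 alone, with wild type replicate 3 next at 6.74. Alb itself differed by -0.48 in the Atxn1l set and did not pass (adjusted p = 0.821 in limma's fit).

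**Figure D4:**
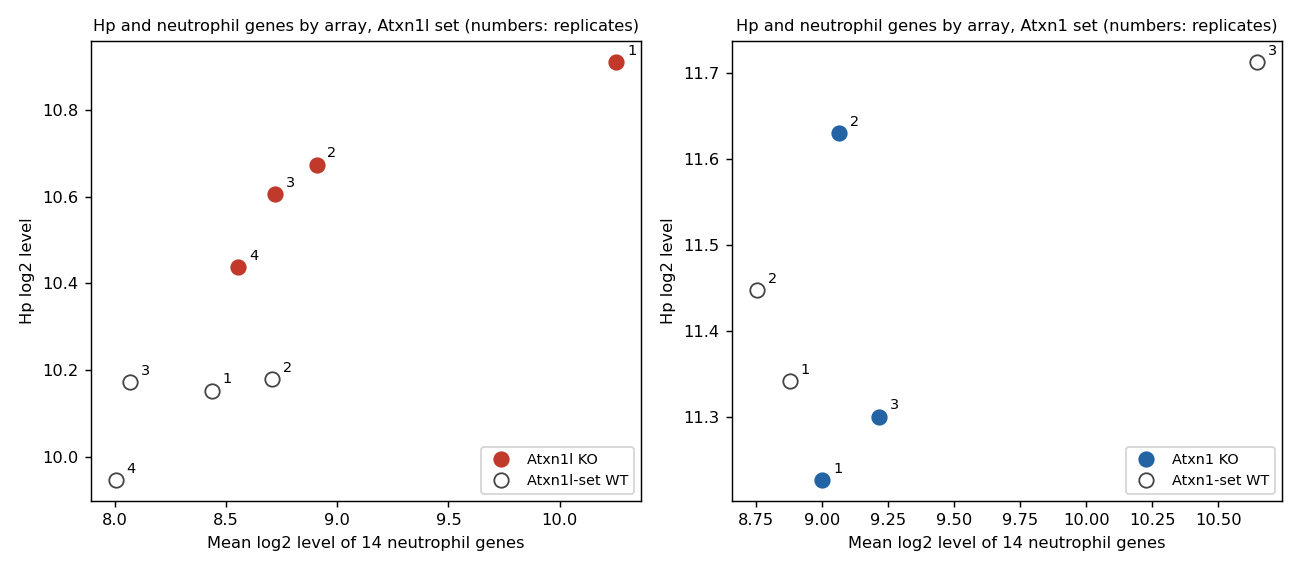
Hp log2 level (vertical axis) against the mean log2 level of 14 neutrophil genes (horizontal axis) on each array of the Atxn1l set (left) and the Atxn1 set (right), with filled points for knockouts, open points for wild types and the replicate number beside each. In the Atxn1l set all 4 knockouts lie above 10.4 in Hp and all wild types below 10.2. In the Atxn1 set the groups are mixed.

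Other acute phase genes gave no call in the Atxn1l knockout. Of 23 measured genes of acute phase proteins, haem handling and interleukin-6 signalling, 0 passed and 16 lay above 0, with a median of 0.08. Socs3, a feedback inhibitor of cytokine signalling, had the smallest p of the list (0.22, SE 0.07), followed by Stat3, the transcription factor that acts downstream of interleukin-6 (0.18, SE 0.06). The sizes of Saa3 (1.48), an amyloid protein of inflamed tissue, Lrg1 (0.95), Itih4 (0.73) and Serpina3n (0.67) were larger than that of Hp, and none passed. Without knockout replicate 1 Saa3 had 0.59, Lrg1 0.57, Itih4 0.33 and Serpina3n 0.31. Cd163, the macrophage receptor that takes up haptoglobin with its haemoglobin, had -0.13, and Hmox1, which breaks down haem, had 0.38. In the Atxn1 knockout 0 of 23 passed and 4 lay above 0 (median -0.11), a median that was 0.03 without wild type replicate 3.

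Genes that build or carry L-selectin ligands beside Chst4 gave no call. Of 16 measured genes, 0 passed in the Atxn1l knockout, 8 lay above 0 and 8 below, and the median was -0.01. Chst2, the partner enzyme of Chst4 on high endothelial venules, differed by -0.05, and Chst5, its closest relative, by 0.02. The carrier proteins Glycam1 and Madcam1 differed by 0.01 and 0.14. The largest negative values were those of St3gal6 (-0.28, SE 0.05), a sialyltransferase, and Emcn (-0.19, SE 0.06), a sialomucin of endothelial cells, and neither passed in limma's fit (adjusted p = 0.207 and 0.390). In the Atxn1 knockout 0 of 16 passed, with a median of -0.01. The 7 measured genes of lymphocytes and lymph nodes had array means of 7.75 to 8.08 in Atxn1l knockouts and 7.74 to 8.03 in wild types.

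Lists were also made for the partners or relatives of Ap1g1, Ist1, Dhx38 and Txnl4b, Pkd1l3 and Zfhx3, and they gave no call in either knockout. In the Atxn1l knockout 0 of 7 other AP-1 adaptor subunits passed (median 0.07, Ap1g2 highest at 0.15). Of 14 genes of other ESCRT-III subunits and their partners, such as Vps4a, 0 passed (median -0.01, Chmp1b lowest at -0.18). Likewise 0 of 12 spliceosomal genes (median -0.003), 0 of 7 other polycystins (median 0.01, with Pkd1l2 at 0.13) and 0 of 2 other zinc finger homeobox genes passed. Medians of these lists in the Atxn1 knockout were 0.01 for AP-1, 0.02 for ESCRT-III, 0.01 for the spliceosome and -0.01 for polycystins, with no gene past the threshold. Among 8 airway secretory genes, 5 heart genes and 5 thymus genes 0 passed in either knockout, and their array means overlapped between the groups of each set.

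To see which transcripts followed Chst4 and Hp from array to array apart from genotype, each value was taken as its deviation from the mean of its group over the 14 arrays. Among 9047 named genes of at least median spread, the deviations of Hp were most like those of Gsto1, a glutathione transferase (r = 0.93), Aldh3b1, an aldehyde dehydrogenase (r = 0.90), and Plet1, a surface protein of epithelial cells (r = 0.89). In the Atxn1l set Gsto1 differed by 0.16, Aldh3b1 by 0.26 and Plet1 by 0.07. The deviations of Chst4 were most like those of Frmd5 (r = 0.89), Tpbpb (r = 0.86) and C1rl (r = 0.86). Chst4 itself had deviations with an SD of 0.06, below the 0.08 of the median probe set. These are the highest of many likenesses over 14 arrays and are given as a description only.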

How the data were processed

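Log2 levels on 14 arrays were deposited by the authors, who made them with RMA in 2 separate runs, of 8 and of 6 arrays, per the labels' design text. RMA and limma are named in the submitters' processing notes, and no version of the probe sets is named there. Probe sets were named through the platform's gene table (18786 of 21212 with 1 symbol) and by Entrez number. Knockouts and wild types of a set were compared by limma 3.58.1 in R 4.3.3 (lmFit, eBayes, no covariate), two-sided, over all 21212 probe sets with Benjamini-Hochberg adjustment, and an adjusted p under 0.05 is a call. SE and 95% intervals are those of the fit and are not corrected for the choice of members. The members and all gene lists were chosen with earlier results of these data known. Named genes are the members, the targeted genes, the genes between Dhx38 and Chst4, list genes that passed or had the 2 smallest p, further list genes named for their role or size after their values were seen, and the 3 genes most like Chst4 and Hp. The fit was tested on simulated data. Of 100 genes with a true change of 0.5 it called 84 in the Atxn1l set and 60 in the Atxn1 set. Of 100 genes with a true change of -1.0 it called 100 and 90, with 8 and 7 false calls. A change of 0.5 can thus be missed, more often in the Atxn1 set. Precision is limited by the number of arrays, and, as labels do not give litters, p-values measure the spread between these samples. Alternatives were a replicate term, an intensity-dependent prior, array quality weights, removal of dim probe sets, joint normalization, median centring, an Xist covariate, other windows, a looser threshold and leaving out each array.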

Additional observations from a re-analysis of the deposited data

Results flagged for a closer look

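Hp on wild type replicate 4 of the Atxn1l set, at a log2 level of 9.95, lay apart from the other 3 wild types (10.15 to 10.18) by more than Dixon's 95% criterion allows. Of 22 groups examined, this was the 1 flagged, where chance flags about 5% of groups. Without that array the Hp difference was 0.49, against 0.54 with it.

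Chst4 lay below the wild-type mean on all 4 Atxn1l knockout arrays and above it on all 3 Atxn1 knockout arrays. The change in the Atxn1l knockout minus that in the Atxn1 knockout was -0.67, and the difference was not tested.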

How the results depend on the processing

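Chst4, Hp and Pkd1l3 kept their direction in the Atxn1l knockout under all 15 alternatives, at -0.62 to -0.56, 0.46 to 0.62 and 0.20 to 0.31, and the other 7 members kept their signs too, Ap1g1 nearly at 0 without knockout replicate 2. The replicate term, the intensity-dependent prior and the removal of dim probe sets leave the size of a change the same by construction, so they could not alter a direction. In the Atxn1 knockout no member passed under any of the alternatives run. There Hp ranged from -0.32 with array weights to -0.01 without wild type replicate 3. Both ends hung on that array, whose weight was 6.38, against 0.163 and 0.464 for wild type replicates 1 and 2. Pkd1l3, Zfhx3, Ap1g1, Zfp821, Dhx38 and Txnl4b, all near 0, changed sign under 1 to 3 alternatives. Pmfbp1 was not in the fits with the filter on dim probe sets.

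With the replicate number as a block, 0 members and 0 flanking genes passed in the Atxn1l knockout, against 1, Chst4, without it, while the size of its change was the same by construction and the block left fewer degrees of freedom. The labels do not tie these numbers to the collected pairs. Deviations of same-numbered arrays correlated at 0.04 to 0.38 in the Atxn1l set and at -0.42 to 0.42 in the Atxn1 set, so the numbers were not taken to pair the samples, and not every array was closest to its own number. Of the other list genes, 2 passed in the Atxn1l knockout, against 1 with the block. The filter on dim probe sets removed Chil3 and left 1. With the Xist covariate 3 passed (Ngp added), and 0 to 4 did in fits without 1 array, the cause of which was not tested.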
